A study of Mus musculus with 4 samples.

Results

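The 8 S100 genes S100a1, S100a4, S100a6, S100a8, S100a9, S100a10, S100a11 and S100a13 were taken by symbol from the 32285 genes of the deposited matrices, and all 8 were found. They were followed in live CD45-positive cells of 2 brain regions, thalamus and hippocampus (HPC), taken on the injured side from C57B6/J mice with cortical brain injury and measured by droplet single-cell RNA sequencing (10x Genomics). CD45 is found on the surface of all leukocytes and, at a lower level, on microglia. Each region was a pool of cells in 4 tagged sets, each taken here as 1 mouse, which the labels do not state, so the p-values below measure the spread between these sets. Injury, sort and strain were common to all sets, no uninjured mice were measured, and the labels do not give the time after injury. Each region was 1 library, and so a difference by region cannot be told apart from one by library.

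S100 proteins are small calcium-binding proteins with a pair of EF-hand motifs, most of which work as dimers and bind other proteins when calcium rises. S100a8 and S100a9 form calprotectin, a major cytosolic protein of neutrophils that binds zinc and manganese and, once released, can signal through Toll-like receptor 4. S100a10 binds annexin A2, S100a11 binds annexin A1, S100a4 binds non-muscle myosin, S100a6 binds the protein Cacybp, S100a13 takes part in the release of proteins that lack a signal peptide, and S100a1 is best known from muscle, where it acts on calcium handling. In the brain the family is best known for S100b, a marker of astrocytes, which the sort for CD45 leaves out.

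The genes of the members lie on mouse chromosome 3 (GENCODE M21, GRCm38, all protein-coding), 6 of them together and the other 2 further along. On the minus strand S100a1 spans 90511034 to 90514392, and S100a9 spans 90692632 to 90695721. On the plus strand S100a13 spans 90514435 to 90524581, S100a4 90603771 to 90606045, S100a6 90612882 to 90624181, S100a8 90668978 to 90670035, S100a11 93520488 to 93526287 and S100a10 93555080 to 93564643. S100a4 shares exons on its strand with the annotated gene Gm42674, which is not among the genes of the matrices, so reads of the pair in those exons cannot be told apart.

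S100a1 and S100a13 lie head to head, with 42 bases between their starts. That shared stretch, chr3:90514393-90514434 on the plus strand of GRCm38, is shown because both genes were followed through the same microglial states below.
S100a1 to S100a13: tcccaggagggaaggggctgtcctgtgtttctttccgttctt

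Sequence upstream of the start of the gene was available from RefSeq (GRCm38.p6) for 7 of the 8 members, and 250 bases before each start were searched. The letters TATAAA, on either strand, occurred in 2 of these members, S100a4 and S100a8, and in 12.4% of 32851 promoters. In both they were on the strand of the gene, 31 and 30 bases before its RefSeq start, while in S100a9 the same letters began at the RefSeq start itself. For S100a9 that start is the end of the span given above, and for S100a8 it is 90669071, inside its span. The windows of 30 bases are shown because S100a8, S100a9 and S100a4 are the members with these letters at or close before the RefSeq start, given in capitals, in the order chr3:90669029-90669058 (plus), chr3:90695704-90695733 (minus) and chr3:90603727-90603756 (plus).
S100a8: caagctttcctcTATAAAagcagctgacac
S100a9: caaggagctgccTATAAAtactgggcttac
S100a4: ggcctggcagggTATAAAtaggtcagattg

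The other letters searched were CCAAT, found in S100a6 and in 33.8% of promoters, TGANTCA, found in S100a11 and in 6.75%, and GAGGAA, found in S100a8 and S100a11 and in 23.3% (either strand, no overlap between motifs was removed). These are matches of letters only.

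After filtering, 24939 of 29190 cells with 119958441 UMIs (unique molecular identifiers, each counting 1 captured RNA molecule) were kept, 2072 to 5389 cells per set at a median of 4261.5 to 4657 UMIs. Cells were named "X-like" from marker genes that held no S100 gene. This gave 18718 microglia-like, 2764 T-like, 836 neutrophil-like, 158 monocyte-like, 110 NK-like, 85 dendritic-like, 76 B-like and 27 border macrophage-like cells. A further 1450 cells carried markers of more than 1 class, 711 fell short of every class and 4 were non-immune. A typical microglia-like cell had 90.9% of 11 microglial markers (median), and 1059 cells were within 1 marker of the limit. All levels below are UMIs per 10000 UMIs of a group of cells. Because 3′ libraries differ between genes in how well an RNA is captured, levels were compared between cells and not between genes.

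The members differed in the leukocytes that held them (no test, since the classes were set by expression). S100a8 and S100a9 marked neutrophil-like cells, S100a4 and S100a10 were high in T-like cells, S100a6 and S100a11 were high in both, S100a13 was highest in T-like and NK-like cells, and S100a1 was low everywhere and came mostly from microglia. Neutrophil-like cells, 3.35% of the cells, held 80.9% of the S100a8 and 82.1% of the S100a9 UMIs. T-like cells, 11.1% of the cells, held 60.0% of S100a4, 48.2% of S100a6 and 70.9% of S100a10. Microglia-like cells, 75.1% of the cells, held 71.1% of S100a1, close to their share of the cells, but 3.31% of S100a4 and 3.23% of S100a6.

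**Figure D1:**
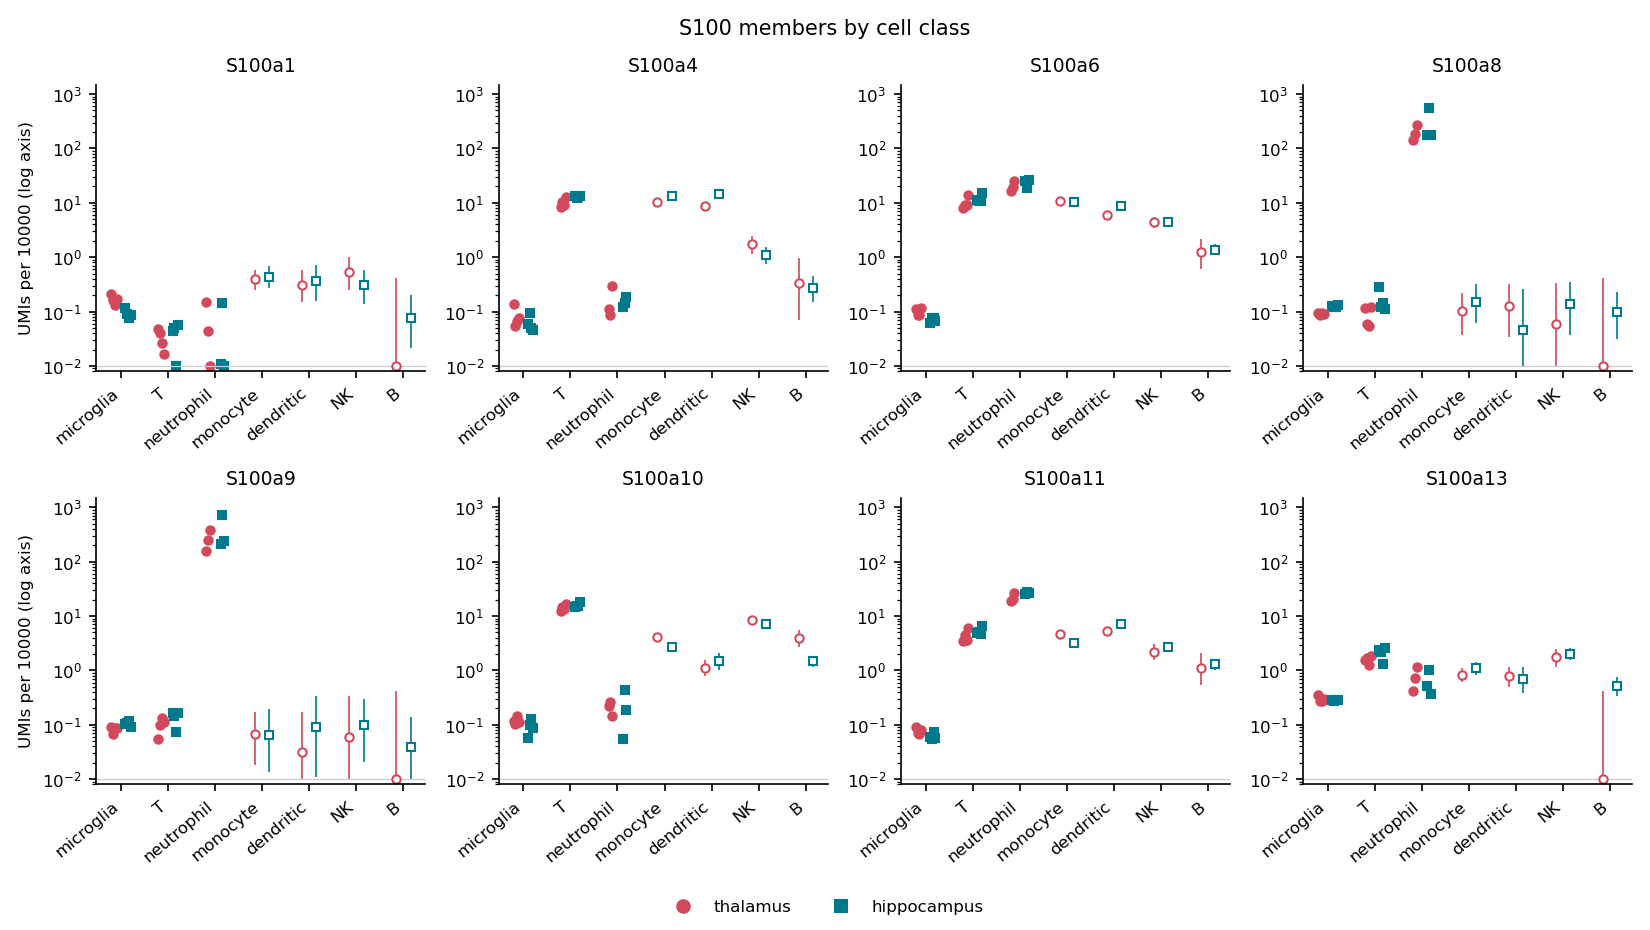
Levels of the 8 S100 genes by cell class, in UMIs per 10000 on a log axis. Filled symbols are single sets (thalamus circles, hippocampus squares) and open symbols are all cells of a region where too few sets had 20 cells, with exact 95% Poisson intervals. Symbols on the grey line at 0.01 stand for a level of 0 or below that value. S100a8 and S100a9 stood above 100 in every neutrophil-like set and below 0.3 elsewhere.

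S100a8 and S100a9, the subunits of calprotectin, were measured in the 3 sets of each region that had at least 20 neutrophil-like cells. S100a8 stood at 143, 183 and 275 in thalamus sets 1, 2 and 4 and at 176, 555 and 178 in HPC sets 1, 2 and 4. S100a9 stood at 155, 253 and 376 in the same thalamus sets and at 213, 717 and 236 in the HPC sets. HPC set 2, with 26 neutrophil-like cells, was the highest for both genes, and the other sets of the regions overlapped.

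Pooled over neutrophil-like cells, S100a8 was 192 (exact 95% Poisson interval 190 to 194) and S100a9 239 (237 to 241). Next in order for S100a8 came T-like cells with 0.158 (0.135 to 0.184) and monocyte-like cells with 0.125 (0.0664 to 0.213), and the intervals of all classes below neutrophils overlapped those of their neighbours. S100a9 was 0.124 (0.103 to 0.147) in T-like cells and 0.0962 (0.0900 to 0.103) in microglia-like cells. Intervals like these cover counting error only.

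In microglia-like cells S100a8 was low, and how much of it was background was not tested. After thinning every cell to 1000 UMIs, which left out 85, 12 and 19 shallower cells, S100a8 was seen in 1.13% (0.985 to 1.29, exact binomial) of microglia-like, 0.799% (0.502 to 1.21) of T-like and 93.1% of neutrophil-like cells. Without thinning the shares were 5.09%, 4.23% and 94.9% at median depths of 4695, 3534.5 and 1921.5 UMIs. T-like cells should lack S100a8, and the interval of the microglia-like share overlapped theirs. The ratio of S100a8 to S100a9 was 0.784 in thalamic and 0.813 in HPC neutrophil-like cells, and 1.07 and 1.19 in microglia-like cells. Microglia-like cells held 0.0518% of the S100a8 level of neutrophil-like cells in the thalamus and 0.0621% in the HPC. Within the HPC library, microglia-like cells of set 1, where 8.55% of the cells were neutrophil-like, had an S100a8 level of 0.124, and those of set 3, where 0.338% were, had 0.123. T-like cells of the same sets had S100a8 at 0.283 and 0.145.

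To ask whether the regions differed, raw counts were summed per set and cell class and tested over all genes with edgeR's quasi-likelihood test and Benjamini-Hochberg adjustment, and a gene was called at an adjusted p-value under 0.05. In neutrophil-like cells 2 of 2923 genes were called (0.0684%), and 0 of the 5 members tested (0 at an unadjusted p under 0.05, 0 by DESeq2). S100a8 was 200 ± 67.6 in the thalamus and 303 ± 218 in the HPC (SD, n = 3 and 3), a log2 fold change of -0.71 (standard error, SE, 0.46, adjusted p = 1 by edgeR). Without HPC set 2 it was 0.23, so that the direction rested on 1 set of 26 cells. S100a6, which is also expressed in many migrating cells, stood at 20.6 ± 4.34 and 23.6 ± 3.89 in neutrophil-like cells, and S100a11 at 22.0 ± 3.92 and 26.5 ± 1.34. Neither passed the test.

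S100a10 was highest in T-like cells. Thalamus sets had S100a10 levels of 12.6, 14.7, 13.4 and 17.0, and HPC sets 14.7, 15.1, 15.4 and 17.9. NK-like cells followed with 7.71 (6.93 to 8.56), monocyte-like cells with 3.48 (3.13 to 3.86) and B-like cells with 1.85 (1.53 to 2.23). The sets of the 2 regions overlapped, and each step down this order of classes lay outside the counting intervals.

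S100a4 was at 8.42, 10.5, 9.20 and 13 in T-like cells of the thalamus sets and at 13.5, 12.5, 12.7 and 13.5 in those of the HPC sets. Thalamus set 4 reached the range of the HPC, and the other 3 thalamus sets lay below every HPC set. Pooled S100a4 levels of T-like (12.0), monocyte-like (11.8) and dendritic-like cells (11) had overlapping intervals, while NK-like cells, at 1.32, were lower by more than the counting intervals. Neutrophil-like cells had 0.133 (0.0832 to 0.201) of S100a4 and microglia-like cells 0.0746 (0.0691 to 0.0803).

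For the other members in T-like cells, S100a6 was at 7.87, 9.29, 9.01 and 13.7 in the thalamus sets and at 11.1, 10.7, 10.6 and 15.0 in the HPC sets. S100a11 was at 3.51, 4.56, 3.63 and 6.14 and at 4.83, 5.03, 4.70 and 6.63. S100a13 was at 1.58, 1.71, 1.28 and 1.83 and at 2.39, 2.23, 1.3 and 2.58. Set 4 was the highest of its region for all 3 genes, and the regions overlapped for each.

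Between the regions 18 of 8963 genes were called in T-like cells (0.201%) and 0 of the 7 members tested (4 at an unadjusted p under 0.05, S100a4, S100a8, S100a9 and S100a13, and 0 by DESeq2). S100a4 was 10.3 ± 2.00 in the thalamus and 13 ± 0.546 in the HPC (SD, n = 4 and 4, log2 fold change -0.36, SE 0.11, edgeR adjusted p = 0.377). S100a13 was 1.6 ± 0.237 and 2.12 ± 0.566 (log2 fold change -0.48, SE 0.14, edgeR adjusted p = 0.298). With the set number as a block, edgeR gave adjusted p-values of 0.00282 for S100a13, 0.00655 for S100a4 and 0.0273 for S100a6 (log2 fold changes -0.49, -0.38 and -0.29). These 3 members were thus called as lower in the thalamus only under this pairing, which the labels do not state. With it 181 of the 8963 genes were called. In T-like cells, same-numbered sets of the regions deviated together by 0.0330 to 0.257 (correlation), less firmly than in microglia. Sets of different numbers had -0.173 to 0.0377, which overlapped that range. The summed level of a list of early-response genes known to respond to tissue dissociation was 27.7 to 31.7 in T-like cells of the thalamus and 20.2 to 27.1 in those of the HPC, and its part in these differences was not tested.

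The T-like cells were then split by receptor and lineage genes, a split chosen after the data were seen. Trdc, the constant gene of the delta receptor chain, was detected without Foxp3 or Cd8b1 in 912 T-like cells, called Trdc-positive here. These were 15.8%, 25.0%, 30.1% and 62.3% of T-like cells in thalamus sets 1 to 4 and 20.4%, 23.1% and 49.6% in HPC sets 1, 2 and 4. Set 4 had the highest share in both regions, and without set 4 the pooled shares were 21.7% in the thalamus and 21% in the HPC. Set 4 also had the highest S100a6, S100a10 and S100a11 of T-like cells in each region, and the part of its Trdc share in that was not tested. Of the rest, 266 cells had the regulatory T cell gene Foxp3 without Trdc or Cd8 genes, and 170 were Cd8-positive without Trdc, Foxp3 or Cd4. Another 693 were Cd4-positive without Foxp3, Trdc or Cd8 genes. A further 723 T-like cells fell in none of these subsets. S100a6 was 18.6 (18.2 to 19.1) in Trdc-positive, 10.9 in Foxp3-positive, 10.2 in Cd8-positive and 5.95 (5.67 to 6.24) in Cd4-positive cells without Foxp3. S100a10 was 20.9, 17.0, 8.69 and 11.6 in the same order, S100a4 17.2, 11, 6.76 and 9.90, and S100a11 7.86, 3.42, 2.74 and 3.71. All 4 genes were highest in the Trdc-positive cells, although their order among the other cells differed.

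Within these subsets the regional order of S100a4 was the same in each. S100a4 was 15.9 (15.4 to 16.4) in thalamic and 19.8 (19.0 to 20.7) in HPC Trdc-positive cells, 8.71 and 12.7 in Foxp3-positive, 5.83 and 7.91 in Cd8-positive and 7.95 and 11.5 in Cd4-positive cells without Foxp3. The level of S100a10 in Trdc-positive cells was 20.9 and 20.8, with overlapping intervals. These are pooled cells with counting intervals and no test.

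**Figure D2:**
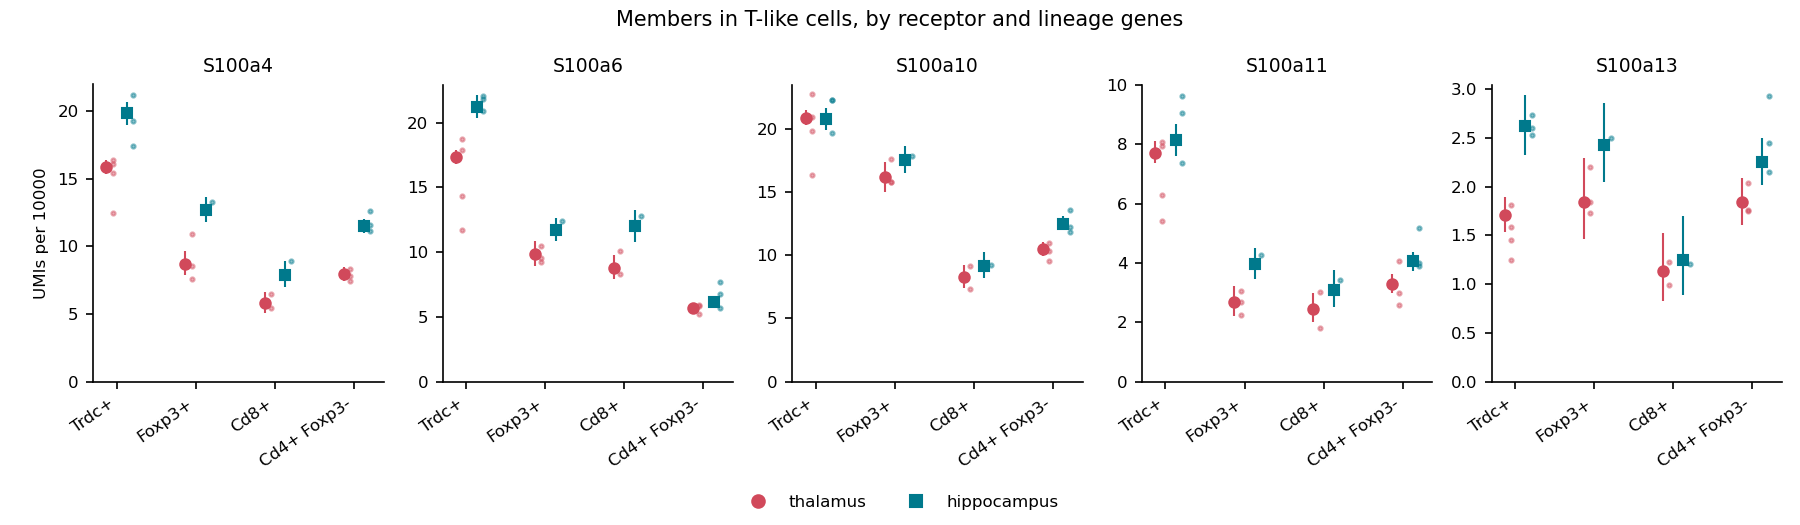
Levels of 5 members in T-like cells split by receptor and lineage genes, in UMIs per 10000. Large symbols are all cells of a region with exact 95% Poisson intervals, and small dots are sets with at least 20 such cells. For S100a4 the thalamus circle was below the hippocampus square in each subset, from 15.9 against 19.8 in Trdc-positive cells to 5.83 against 7.91 in Cd8-positive cells.

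The smaller classes had too few sets with 20 cells for a test and are given as pooled levels. Monocyte-like cells had S100a6 at 10.9 (10.1 to 11.8) in the thalamus and 10.5 (9.56 to 11.5) in the HPC, with overlapping intervals. Their S100a4 was 10.5 (9.73 to 11.4) and 13.4 (12.4 to 14.5), and their S100a10 4.12 (3.62 to 4.67) and 2.67 (2.22 to 3.18). Both pairs of intervals stood apart, with the regions in opposite order for the 2 genes.

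Dendritic-like cells had S100a4 at 8.81 (7.81 to 9.90) in the thalamus and 14.4 (12.8 to 16.1) in the HPC, and S100a6 at 5.89 (5.09 to 6.79) and 8.92 (7.71 to 10.3). S100a11, which was 23.5 (22.8 to 24.3) in neutrophil-like cells, was next in dendritic-like cells at 5.94 (5.31 to 6.63), followed by T-like cells at 4.98 (4.85 to 5.12). Of the 158 monocyte-like cells, 46 came from thalamus set 1 and 49 from HPC set 1, and of the 85 dendritic-like cells 21 and 22 came from thalamus sets 1 and 2. NK-like cells had S100a13 at 1.92 (1.54 to 2.37), overlapping the 1.99 (1.90 to 2.08) of T-like cells, while microglia-like cells were the lowest class for S100a13 at 0.290 (0.280 to 0.302). That last interval overlapped those of B-like cells at 0.447 (0.294 to 0.650) and border macrophage-like cells at 0.471 (0.153 to 1.10).

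S100a1 followed another order. Its pooled level was 0.413 (0.299 to 0.556) in monocyte-like, 0.389 (0.231 to 0.615) in NK-like and 0.334 (0.198 to 0.528) in dendritic-like cells, with overlapping intervals. Microglia-like cells followed at 0.13 (0.123 to 0.137), below that interval, and T-like cells were the lowest at 0.0374 (0.0266 to 0.0511), with an interval that overlapped those of neutrophil-like cells at 0.0422 (0.0170 to 0.0870) and B-like cells at 0.0662 (0.0180 to 0.169). The 27 border macrophage-like cells had 0.377 (0.103 to 0.965), overlapping monocyte-like, NK-like, dendritic-like and microglia-like cells.

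Microglia-like cells were next split by scores of marker genes, none of them an S100 gene. Disease-associated microglia (DAM) are a reactive state with raised lipid and lysosome genes, homeostatic microglia are the resting state, and interferon-like and MHC class II-high cells carry the genes of interferon response and of antigen presentation. There were 1865 DAM-like cells (1579 thalamic, 286 HPC), 8205 homeostatic-like, 496 interferon-like and 430 MHC class II-high cells, and 6907 fell between the limits. DAM-like cells were 31.1%, 13%, 15.4% and 16% of microglia-like cells in thalamus sets 1 to 4 and 5.37%, 1.37%, 0.981% and 1.98% in the HPC sets. HPC set 3 had under 20 DAM-like cells and was left out of the tests on them. The states were set from other genes of the same cells, and the p-values take no account of that choice.

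S100a1 was the member that changed most between these states. In DAM-like cells S100a1 was at 0.252, 0.330, 0.246 and 0.264 in the thalamus sets and at 0.296, 0.346 and 0.301 in HPC sets 1, 2 and 4. In homeostatic-like cells it was at 0.106, 0.0629, 0.0558 and 0.0842 in the thalamus sets and at 0.0915, 0.0638, 0.0683 and 0.0697 in HPC sets 1 to 4. Each of the 7 DAM-like values was above each homeostatic-like value, and the ranges did not overlap. How many of all genes had no overlap between these states was not counted.

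Over 7 sets the S100a1 level was 0.291 ± 0.0385 in DAM-like and 0.0763 ± 0.0182 in homeostatic-like cells (SD, n = 7), a log2 fold change of 2.13 (SE 0.17, adjusted p = 1.09e-10 by edgeR, with the set as a block), higher in 7 of 7 sets. Over the alternatives the adjusted p of S100a1 was between 1.08e-32 and 2.21e-07. After thinning to 1000 UMIs, S100a1 was seen in 3.65% (2.85 to 4.60, exact binomial) of DAM-like, 0.708% (0.538 to 0.914) of homeostatic-like and 0.327% (0.15 to 0.620) of T-like cells, the class with the lowest level. Unthinned, the shares were 13%, 3.14% and 1.27% at median depths of 5889, 4542 and 3534.5 UMIs. S100a1 was thus a sparse transcript even in DAM-like cells.

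Over all genes 4892 of 10499 were called between these states (46.6%), 2600 higher and 2292 lower in DAM-like cells, and 3 of the 8 members were, a share near that of all genes. Scaled by total UMIs, an alternative chosen after seeing the data, the median of all genes moved by -0.25 on the log2 scale and 1551 genes were higher and 4653 lower. S100a1, S100a13 and S100a10 were called in both scalings, with log2 fold changes of 1.89, 0.28 and -0.84 under total UMIs. The dissociation list summed to 33.6 to 38.8 in DAM-like and 70.5 to 84.6 in homeostatic-like cells of the thalamus and to 22.1 to 35.3 and 51.6 to 60.0 in those of the HPC. Of its 12 genes tested 3 were higher and 8 lower in DAM-like cells, and its part in the differences of the members was not tested.

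S100a13, the head to head neighbour of S100a1, also rose. S100a13 was at 0.396, 0.308, 0.306 and 0.294 in DAM-like cells of the thalamus sets and at 0.296, 0.422 and 0.376 in HPC sets 1, 2 and 4, against 0.319, 0.208, 0.255 and 0.243 and 0.317, 0.268 and 0.316 in homeostatic-like cells of the same sets. The ranges overlapped, but within sets the DAM-like value was higher in 6 of 7. The log2 fold change was 0.53 (SE 0.11, 0.343 ± 0.0538 against 0.275 ± 0.0432, SD, n = 7, edgeR adjusted p = 0.000485). It was 0.28 (edgeR adjusted p = 0.0825) without cells poor in the nuclear RNA Malat1.

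S100a10 fell in DAM-like cells. S100a10 was at 0.0823, 0.0900, 0.0841 and 0.0735 in the thalamus sets and at 0.0718, 0 and 0 in HPC sets 1, 2 and 4 of DAM-like cells, and at 0.139, 0.141, 0.178 and 0.129 and 0.0702, 0.105 and 0.108 in homeostatic-like cells. It was lower in 6 of 7 sets, and the log2 fold change was -0.58 (SE 0.22, 0.0574 ± 0.0397 against 0.125 ± 0.0341, edgeR adjusted p = 0.0358). After thinning, S100a10 was seen in 1.07% (0.930 to 1.23) of microglia-like and 1.10% (0.505 to 2.08) of neutrophil-like cells (4.59% and 2.75% unthinned), with overlapping intervals. Whether the microglial level of S100a10 was background was not tested. The call was lost without thalamus set 1, 2, 3 or 4 (edgeR adjusted p = 0.0649, 0.0532, 0.115 and 0.0782) and with DESeq2 (adjusted p = 0.0638). The summed level of the T cell marker list, whose cells hold most S100a10, was 0.330 to 0.504 in thalamic DAM-like and 0.438 to 0.486 in thalamic homeostatic-like cells, and its part was not tested.

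**Figure D3:**
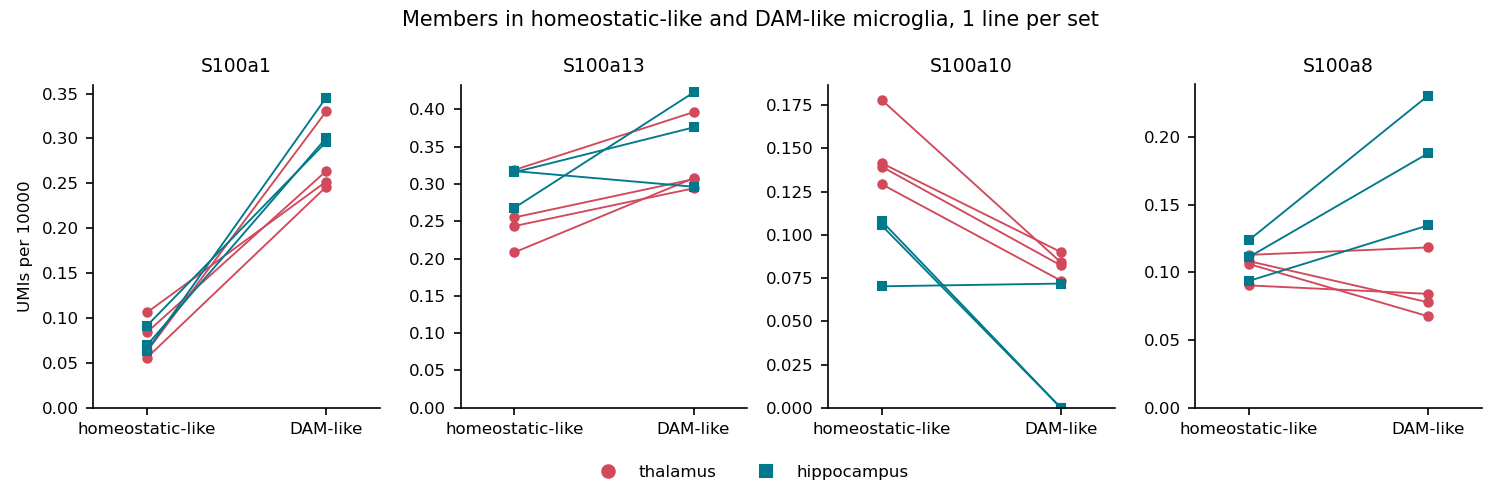
Levels of S100a1, S100a13, S100a10 and S100a8 in homeostatic-like and DAM-like microglia, in UMIs per 10000, with 1 line per set (4 thalamus, 3 hippocampus). S100a1 climbed in every set, from 0.0763 on average to 0.291, while the lines of S100a8 went both ways.

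The other members did not pass the test between these states. S100a4, S100a6, S100a8 and S100a11 had log2 fold changes of 0.11 (SE 0.25), 0.37 (SE 0.24), 0.28 (SE 0.21) and 0.28 (SE 0.29), and S100a9 of -0.19 (SE 0.24). The difference between regions in the step from homeostatic-like to DAM-like cells was tested as an interaction, in which 37 of 11147 genes were called (0.332%) and 0 of the 8 members (1 at an unadjusted p under 0.05, S100a8, and 0 by DESeq2). For S100a1 it was -0.05 on the log2 scale (SE 0.36, edgeR adjusted p = 1).

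Because the limits of the states are arbitrary, with 1274 cells within 0.2 of the DAM limit, the members were also followed along the DAM score. S100a1 was 0.0552 (0.0265 to 0.102) in thalamic and 0.0597 (0.0431 to 0.0807) in HPC microglia-like cells with scores below -0.5. It was 0.0914 and 0.0843 from -0.5 to 0, 0.156 and 0.12 from 0 to 0.5, and 0.177 and 0.233 from 0.5 to 1. Above 1 it was 0.376 (0.334 to 0.420) and 0.495 (0.352 to 0.676). The level thus climbed through the whole range of the score in both regions, and the intervals of the regions overlapped in the lowest and highest bins. S100a13 went from 0.221 and 0.199 in the lowest bin to 0.407 and 0.355 in the highest, and S100a10 from 0.298 and 0.119 to 0.0769 and 0.0634. Of the 54 S100a10 UMIs in the lowest thalamic bin, 14 came from 35 cells of set 1.

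**Figure D4:**
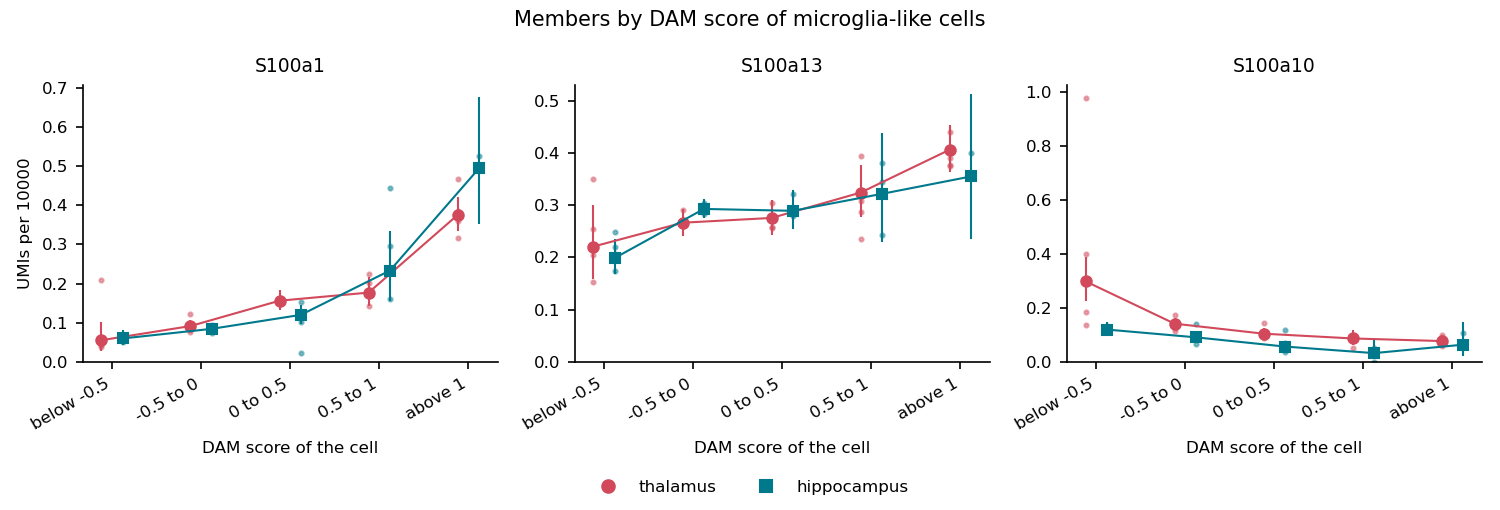
Levels of S100a1, S100a13 and S100a10 along the DAM score of microglia-like cells, in UMIs per 10000. Large symbols are all cells of a region with exact 95% Poisson intervals, and small dots are sets with at least 20 cells in the bin. S100a1 went from 0.0552 to 0.376 in the thalamus and from 0.0597 to 0.495 in the hippocampus.

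In all microglia-like cells, S100a1 was at 0.210, 0.163, 0.134 and 0.172 in the thalamus sets and at 0.117, 0.0921, 0.0751 and 0.0873 in the HPC sets. Every thalamus set was above every HPC set. The share of all genes without overlap between the regions was not counted, here or for the members below. The means were 0.170 ± 0.0313 and 0.0928 ± 0.0175 (SD, n = 4 and 4), a log2 fold change of 0.92 (SE 0.18, adjusted p = 0.0109 by edgeR). S100a1 was 1 of 3 members called of 8 tested, where 1763 of 12974 genes were called (13.6%), 1145 higher and 618 lower in the thalamus, or 879 and 994 when scaled by total UMIs, with the same 3 members.

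Within the homeostatic-like and DAM-like states the regional difference of S100a1 did not pass the test. In homeostatic-like cells the means were 0.0773 ± 0.0228 and 0.0733 ± 0.0124 (SD, n = 4 and 4, log2 fold change 0.02, SE 0.22, edgeR adjusted p = 0.998). In DAM-like cells they were 0.273 ± 0.0387 and 0.314 ± 0.0274 (SD, n = 4 and 3, log2 fold change -0.19, SE 0.22, edgeR adjusted p = 0.854). DAM-like cells, the state with the higher S100a1, were a larger share of the microglia in each thalamus set than in any HPC set, and the part of this share in the regional difference was not tested. Pooled S100a1 was 0.155 (0.0931 to 0.242) in thalamic and 0.0769 (0.0369 to 0.141) in HPC interferon-like cells, and 0.230 (0.136 to 0.363) and 0.112 (0.0654 to 0.180) in MHC class II-high cells, with overlapping intervals and no test between the regions.

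S100a6 and S100a8 were the other members called in all microglia-like cells. S100a6 was at 0.111, 0.0850, 0.0862 and 0.115 in the thalamus sets and at 0.0626, 0.0773, 0.0773 and 0.0672 in the HPC sets, with no overlap. It was higher in the thalamus, with a log2 fold change of 0.56 (SE 0.14, adjusted p = 0.0261 by edgeR). The call was lost without thalamus set 1 or 4 (edgeR adjusted p = 0.0780 and 0.0815) or HPC set 2 or 4 (0.0583 and 0.0685). The T cell marker list, from a class rich in S100a6, summed to 0.453 to 0.513 in microglia-like cells of the thalamus and 0.234 to 0.284 in those of the HPC, with all 4 thalamus sets above the HPC. Its part in the S100a6 difference was not tested.

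S100a8 was at 0.0927, 0.0850, 0.0953 and 0.0908 in the thalamus sets and at 0.124, 0.123, 0.123 and 0.131 in the HPC sets, again with no overlap, and was lower in the thalamus (log2 fold change -0.40, SE 0.08, edgeR adjusted p = 0.0138). In T-like cells, which should lack it, S100a8 was at 0.117, 0.0599, 0.0533 and 0.122 in the thalamus sets and at 0.283, 0.122, 0.145 and 0.112 in the HPC sets. These overlapped, and HPC set 1, the set with the largest share of neutrophil-like cells, was the highest. The pooled T-like level was 0.1 (0.0760 to 0.129) in the thalamus and 0.231 (0.189 to 0.279) in the HPC, or 0.121 (0.0716 to 0.191) in the HPC without set 1. The neutrophil marker list summed to 4.38 to 4.57 in thalamic and 4.89 to 5.11 in HPC microglia-like cells, and its part was not tested. In T-like cells the list summed to 0.517 to 0.826 in the thalamus and 0.434 to 1.07 in the HPC. These values were below those of microglia-like cells. A typical microglia-like cell had 7.69% of the 13 markers of the list and a typical T-like cell 0% (medians). In HPC DAM-like cells the list still summed to 3.68 to 4.88 with Retnlg, Mmp9, Ly6g, Mmp8, Hdc and Trem1 at 0. That sum came from the other genes of the list, so the list cannot measure neutrophil background across these classes. In homeostatic-like cells S100a8 was 0.104 ± 0.00978 and 0.108 ± 0.0130 (log2 fold change -0.09, SE 0.15, edgeR adjusted p = 0.867).

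With the set number as a block, 5 members were called in all microglia-like cells, S100a10 (log2 fold change 0.48, edgeR adjusted p = 0.0266) and S100a11 (0.42, edgeR adjusted p = 0.0415) besides the 3 above. The calls over all 12974 genes tested rose as well, from 1763 to 3764. S100a4, S100a9 and S100a13 had log2 fold changes of 0.49, -0.25 and 0.15 without the block and were called in neither fit.

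**Figure D5:**
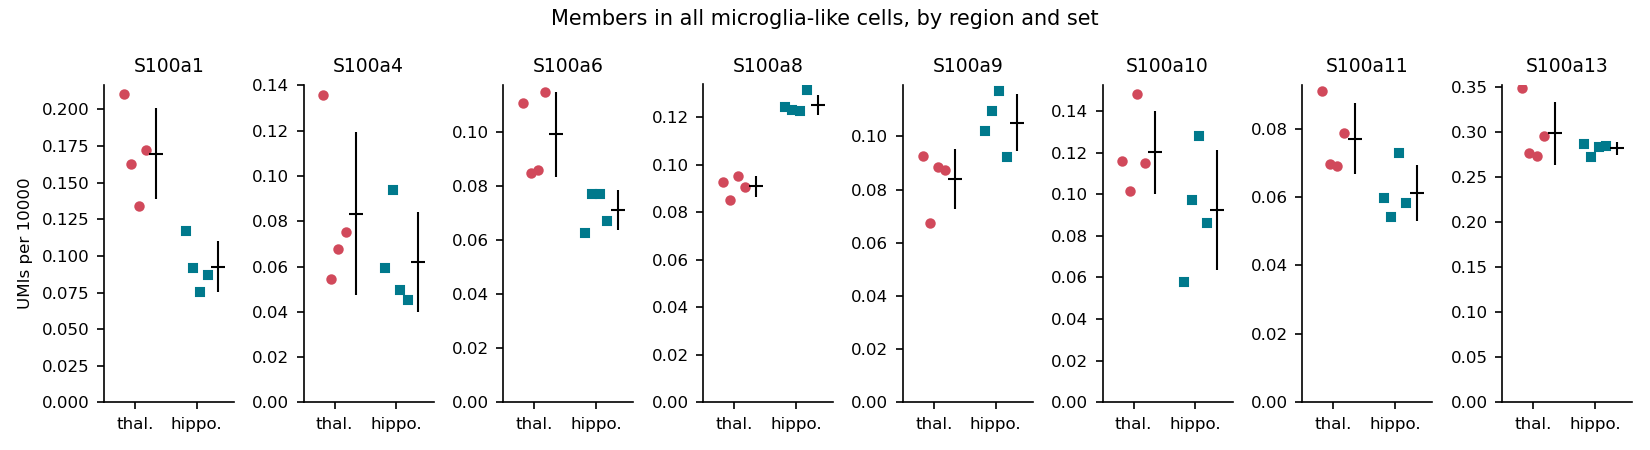
Levels of the 8 members in all microglia-like cells, in UMIs per 10000, by region and set (points) with mean and SD (bars, 4 sets each). Thalamus and hippocampus did not overlap for S100a1, S100a6 and S100a8, and S100a8 was the one with the lower thalamus values, 0.0850 to 0.0953 against 0.123 to 0.131. Over all genes 13.6% were called in this comparison, and the share without overlap was not counted.

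In homeostatic-like cells 171 of 11438 genes were called between the regions (1.5%) and 0 of the 8 members (3 at an unadjusted p under 0.05, 0 by DESeq2). S100a4 came nearest, at 0.133, 0.0629, 0.0797 and 0.111 in the thalamus sets and 0.0553, 0.0580, 0.0546 and 0.0432 in the HPC sets. These values did not overlap, but the share of all genes without overlap was not counted. The log2 fold change of S100a4 was 0.80 (SE 0.22, edgeR adjusted p = 0.104, or 0.0482 with the set number as a block). S100a4 was seen in 0.719% (0.603 to 0.851) of thinned microglia-like cells and in 1.35% (0.674 to 2.40) of thinned neutrophil-like cells (3.02% and 2.27% unthinned), with overlapping intervals. Whether the microglial level of S100a4 was background was not tested. The T cell list summed to 0.438 to 0.486 in these thalamic and 0.224 to 0.279 in these HPC cells and the dissociation list to 70.5 to 84.6 and 51.6 to 60.0, with 9 of its 13 tested genes higher in the thalamus, and the part of neither was tested. In DAM-like cells 141 of 9494 genes were called between the regions (1.49%) and 0 of the 6 members tested (1 at an unadjusted p under 0.05, S100a8 at 0.0869 ± 0.0220 in the thalamus and 0.184 ± 0.0480 in the HPC, and 0 by DESeq2).

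In the 2 other states no member was called. Between interferon-like and homeostatic-like cells 1471 of 9087 genes were called (16.2%), 912 higher and 559 lower (687 and 1011 scaled by total UMIs), and 0 of 4 members (0 at an unadjusted p under 0.05, 0 by DESeq2), with S100a13 at 0.262 ± 0.119 and 0.275 ± 0.04 (SD, n = 8). Between MHC class II-high and homeostatic-like cells 1019 of 9902 genes were called (10.3%), 624 higher and 395 lower (482 and 744 scaled by total UMIs), and 0 of 7 members (2 at an unadjusted p under 0.05, 0 by DESeq2). There S100a1 was at 0.262 and 0.111 in thalamus sets 2 and 4 and at 0.122, 0.167, 0.0652 and 0.0667 in the HPC sets, against 0.0734 ± 0.0117 in homeostatic-like cells. Of these 6 sets 4 were higher, and the log2 fold change was 1.02 (SE 0.37, edgeR adjusted p = 0.0760). S100a6 was at 0.0785 and 0.0369 in these thalamus sets and at 0, 0.384, 0.326 and 0.0501 in the HPC sets, higher than in homeostatic-like cells in 3 of 6 (log2 fold change 1.07, SE 0.40, edgeR adjusted p = 0.0882). S100a4 was at 0.986 in MHC class II-high cells of HPC set 2 and at 0 to 0.196 in the other 5 sets. The monocyte list summed to 0.122 to 1.17 in HPC and 0.602 to 0.774 in thalamic MHC class II-high cells. In homeostatic-like cells it summed to 0.152 to 0.206 and 0.157 to 0.279. The border macrophage list summed to 1.13 to 3.47 in HPC MHC class II-high and 1.66 to 2.04 in HPC homeostatic-like cells. The part of these lists in the S100a4 and S100a6 levels was not tested.

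The partners of the S100 proteins were followed as fixed lists. The list of annexins and membrane partners holds 8 annexins with Ahnak and Dysf, and of the 7 tested, all annexins, 5 rose and 0 fell in DAM-like against homeostatic-like cells (median log2 fold change 0.56, against -0.01 over all genes, of which 46.6% were called). Scaled by total UMIs, 5 of the 7 were higher and 1, Anxa6, was lower (median 0.32, against -0.25 over all genes). Anxa2, the partner of S100a10, went from 0.0317 ± 0.00634 to 0.366 ± 0.0646 (log2 fold change 3.76, SE 0.19, edgeR adjusted p = 2.08e-14). Anxa5 and Anxa4, which bind membrane phospholipid, rose with log2 fold changes of 2.84 and 1.22.

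Of 6 receptor genes of S100a8 and S100a9, 3 rose and 2 fell between these states (median 0.29), where 46.6% of all genes were called. The scavenger receptor gene Cd36 rose from 0.00504 ± 0.00410 to 0.157 ± 0.102, Bsg, which encodes basigin, from 3.4 to 4.46 and Cd14, a co-receptor of Toll-like receptor 4, from 2.89 to 3.36. The receptor gene Tlr4 (log2 fold change -0.43) and its adaptor gene Myd88 (-0.42) fell. Of 11 other partners, 9 rose and 1 fell (median 0.67), led by the scaffold gene Iqgap1 (log2 fold change 2.78), the urokinase receptor gene Plaur (2.42) and the urokinase gene Plau (2.20). Myh9, the non-muscle myosin bound by S100a4, fell by 0.20 on the log2 scale. Scaled by total UMIs, 3 of the 6 receptor genes were higher and 2 lower, and 8 of the 11 other partners were higher and 2 lower (medians 0.044 and 0.42).

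Between the regions in all microglia-like cells, 5 of 8 genes of the annexin list, 3 of 6 receptor genes and 8 of 11 other partners were higher in the thalamus and 0 lower (medians 0.39, 0.14 and 0.41, against -0.02 over all genes, of which 13.6% were called). Scaled by total UMIs, 4, 3 and 7 of these were higher and 0 lower (medians 0.33, 0.075 and 0.35, against -0.08). In homeostatic-like cells, with 1.5% of all genes called, these counts were 0 of 7, 1 of 5 (Cd14, log2 fold change 0.34) and 1 of 11 (Actg1, an actin gene, 0.39), and in DAM-like cells, with 1.49%, 0 of 7, 0 of 6 and 0 of 11. Against homeostatic-like cells, interferon-like cells (16.2% of all genes called) had 1 of 6 genes of the annexin list, 1 of 5 receptor genes and 2 of 10 other partners higher, MHC class II-high cells (10.3%) had 2 of 6, 0 of 5 and 2 of 10, and 0 of these lists' genes were lower in either. Scaled by total UMIs the interferon-like counts were 1, 0 and 1 higher with 1 receptor gene lower, and the MHC class II-high counts 1, 0 and 1 higher with 0 lower. Between the regions in T-like and neutrophil-like cells 0 genes of these lists were called by edgeR.

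Across 28 combinations of set and class, S100a8 and S100a9 had a Pearson correlation of 0.997 on the log2 scale (UMIs per 10000 plus 0.1), S100a6 and S100a11 of 0.976, and S100a4 and S100a10 of 0.908. S100a1 was like none of them, at -0.31 to 0.0375. Among 6405 other genes the patterns most like S100a1 were those of Ms4a6c, Ccdc88a and Eno3 (0.832, 0.80 and 0.797), and those most like S100a8 were Mirt2, Retnlg and Hdc, of which Retnlg and Hdc were used to name neutrophils. The genes most like S100a10 were Lgals1, Rasgrp1 and Mrpl18 (0.968, 0.968 and 0.966), and most like S100a6 were Emb, Adgre5 and Pfn1 (0.982, 0.971 and 0.971). The points share libraries and fall into the cell classes, and no test was made.

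Of the 10 other genes with an S100 symbol, 4 had at least 20 UMIs in all kept cells. S100pbp, which encodes a protein that binds S100P, had 3965 UMIs, S100b 214, S100a3 39 and S100a16 24, and S100z had 0 of 119958441 UMIs. In T-like cells there were 25 of the S100a3 UMIs, and in microglia-like cells 167 of those of S100b, a level of 0.0180 (0.0154 to 0.0210). None of these genes was called in a microglial comparison in which it was tested.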

How the data were processed

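The authors deposited 8 matrices of raw UMI counts per gene and cell, with no normalization, made per the file headers with Cell Ranger 7.1.0 (an earlier version is named in the methods) on mm10 (GRCm38). The sources used here do not say if intron reads were included. The members and lists were chosen with earlier results of these data known. Multiplexing oligos, 14.6% of UMIs, were left out. Cells had 200 to 7500 genes and at most 2% mitochondrial counts. Within a region 0 barcodes occurred in more than 1 set, and 65 were shared between the regions. No doublet caller was used. Cells with markers of more than 1 class were left out of classes, and leaving out the top 5% of UMIs was an alternative.

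A cell was named for the class with the highest share of its markers detected, at least 30% (microglia 45%, with under 30% of any other list). States were mean standardised marker scores (DAM above 0.5, interferon and MHC class II above 1). Members were no markers. Raw counts were summed per set and class with at least 20 cells and 3 sets a region, and tested with edgeR 4.0.16 (R 4.3.3, TMM, filterByExpr, quasi-likelihood F-test), checked on simulated data. Comparisons of states had the set as a block. Named genes were the members, other S100 genes with at least 20 UMIs, the 3 most changed called partners per list and direction, and the 3 genes most like a member.

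Between regions, same-numbered sets of microglia-like cells deviated together (correlations 0.135 to 0.501, different numbers -0.458 to 0.153). The numbers come from the names of the matrices, and the labels do not state that they pair the sets. The main tests between regions had region as the only term, and the set number was a block only in an alternative. Alternatives were DESeq2 1.42.0, its size factors, no filter, scaling by total UMIs, a mitochondrial limit of 5%, a stricter gate, leaving out Malat1-poor cells (under 40 per 10000), the block, and each set left out.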

Additional observations from a re-analysis of the deposited data

Results flagged for a closer look

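In 3 of 56 groups of 4 sets, 1 set lay far from the other 3 (Dixon's ratio above its 95% critical value), about as many as the 1 in 20 that chance gives. S100a6 in T-like cells of HPC set 4 was 15.0 (14.98 UMIs per 10000) against 10.6 to 11.1 in the other HPC sets, and set 4 was also the highest of its region for S100a10, S100a11 and S100a13. Trdc-positive cells, as set above, were 49.6% of the T-like cells of HPC set 4, and the part of this share was not tested. S100a6 in homeostatic-like cells of HPC set 4 was 0.0482 against 0.0702 to 0.0713. S100a13 in DAM-like cells of thalamus set 1 was 0.396 against 0.294 to 0.308.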

How the results depend on the processing

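The levels of the members in microglia-like, T-like and neutrophil-like cells moved by less than 1 SD under each alternative tried on them. Levels of the smaller classes were not recomputed under the alternatives. The members called went from 3 to 5 in microglia-like cells with the set number as a block, from 0 to 1 in homeostatic-like cells with the block or with no filter on low counts (S100a4), and in T-like cells from 0 to 3 with the block and 2 with no filter. In MHC class II-high against homeostatic-like cells they went from 0 to 1 with no filter (S100a4), 2 at the mitochondrial limit of 5% (S100a1, log2 fold change 1.13, and S100a6, 1.46) and 1 with the stricter gate (S100a1, 1.72). Leaving out 1 set gave 0 to 1 members called in homeostatic-like cells (S100a4 without HPC set 1), 0 to 1 in T-like cells (S100a4 without thalamus set 4) and 0 to 1 in MHC class II-high cells (S100a4 without thalamus set 2, S100a6 without thalamus set 4 or HPC set 1).

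The direction turned for S100a1 between regions in homeostatic-like cells (-0.20 with the stricter gate, -0.10 to 0.17 without a set), for S100a1 in the difference between regions (0.031 at the limit of 5%, -0.40 to 0.11 without a set), for S100a6 in MHC class II-high cells (-0.021 without the top 5% of UMIs), and for S100a8 and S100a9 between neutrophil-like cells of the regions (-1.03 to 0.23 and -1.07 to 0.26 without a set). The S100a10 call between DAM-like and homeostatic-like cells was also lost at the limit of 5% (edgeR adjusted p = 0.0695), without the top 5% of UMIs (0.0825) and without the block (0.171), and S100a11 was called between regions in microglia-like cells at the limit of 5% (0.0393). The causes were not tested.

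The genes called between regions in microglia-like cells, 1763, became 3764 with the block and 808 to 2913 without a set, in homeostatic-like cells 592 and 59 to 513 from 171 (495 with no filter), in DAM-like cells 226 and 36 to 160 from 141 (309 with no filter), in T-like cells 181 and 6 to 26 from 18 (131 with no filter), and in neutrophil-like cells 6 and 0 to 2 from 2 (16 with no filter). Those of the difference between regions became 82 with no filter, 61 at the limit of 5% and 15 to 47 without a set, from 37. The block, or leaving it out where states were compared, changed no other call of a member. The stricter gate gave no value between regions in DAM-like and neutrophil-like cells or for the difference between regions, and the smaller classes had too few sets for any test. Levels near 0.1 UMIs per 10000 limit what can be seen of most members in microglia.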

Other observations

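Cells with markers of more than 1 class, 5.81% of all cells at a median of 7059 UMIs, held 23.9% of the S100a4 UMIs, 22.9% of those of S100a6, 13.8% of those of S100a8 and 14.4% of those of S100a9, and entered no comparison.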
